A study of Mus musculus with 6 samples.

Results

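The 9 lysophospholipid acyltransferase genes *Lpcat1*, *Lpcat2*, *Lpcat3*, *Lpcat4*, *Mboat1*, *Mboat2*, *Mboat7*, *Lclat1* and *Lpgat1* were examined in gonadal white adipose tissue (gWAT) of mice on 2 diets. They were taken by their NCBI gene identifiers from the 19790 genes of the deposited read-count table, and all 9 were found. RNA-seq had been done on wild-type C57BL/6 mice, 3 of them on a normal chow diet (NCD) and 3 on a high-fat diet (HFD), each for 8 weeks. The labels give 6 weeks as the age at the start and the study's methods give 8 weeks. No transgene or further treatment is named for either group, and the design text calls the 3 samples of a diet biological replicates. Each library is bulk tissue, in which fewer cells of a type and less RNA per cell cannot be told apart.

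Membrane phospholipids are remodelled in the Lands cycle, in which a phospholipase A releases a fatty acid and leaves a lysophospholipid, and an acyltransferase puts another fatty acid in its place. The enzymes belong to 2 protein families. LPCAT1, LPCAT2, LPCAT4, LCLAT1 and LPGAT1 are of the AGPAT family, and LPCAT3, MBOAT1, MBOAT2 and MBOAT7 are membrane-bound O-acyltransferases (MBOAT). They differ in the lysophospholipid and the fatty acid they prefer. LPCAT3 puts polyunsaturated acids into phosphatidylcholine, and its gene is a known target of the liver X receptors (LXR). LPCAT1 and LPCAT2 also acetylate the precursor of platelet-activating factor (PAF). Reacylation at the same position rebuilds plasmalogens from lysoplasmalogens, the lipids the study is about.

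The libraries held between 49575113 and 66360046 counts, and all members but *Mboat2* had at least 123 counts in every library. The libraries differed in what else they held. Of the counts of NCD replicates 1, 2 and 3, 58.6%, 11.2% and 2.30% fell on 11 secretory genes of the seminal vesicle, against at most 0.0000121% in an HFD library. NCD replicate 1 also had the lowest summed adipocyte markers (9 genes), at 0.282% of its counts, where the other 5 libraries had between 1.52% and 3.14%. All 9 adipocyte markers were detected in every library. The 10 macrophage markers, none of them at 0, summed to between 0.0196% and 0.0960% of the counts on NCD and between 0.298% and 0.421% on HFD. Counts were therefore scaled by edgeR's TMM method, which sets libraries against each other by the bulk of their genes, and are given as TMM-scaled CPM, where CPM relates a gene's counts to the library's total. Values of a diet stand in the order of its replicates 1, 2 and 3. Results are given with and without NCD replicate 1.

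Of the 9 members, 1 passed the test between the diets. *Lpcat3* fell by 41.3% in HFD-fed mice, and was the only one of the 9 genes to pass an adjusted p under 0.05 in the quasi-likelihood test of edgeR, and the only one whose values did not overlap between the diets. It passed at about the same size without NCD replicate 1, and did not pass when any other mouse was left out. With any other mouse left out, 2 to 7 of all 15433 to 15764 genes tested passed. The other 8 genes passed neither with 6 mice nor without NCD replicate 1. All 9 genes had enough counts to be tested, and 1 of 9 (11.1%) stands beside 7.47% of all 15241 genes tested (5.58% higher and 1.9% lower on HFD). Without NCD replicate 1 it was again 1 of 9, where 20.9% of all genes were called. Groups that did not overlap were found for 39.2% of all genes with 6 mice (20.5% higher and 18.7% lower) and for 56.7% without NCD replicate 1 (28.5% higher and 28.1% lower), and for 1 and 3 of the 9 members, the 3 being *Lpcat3* (lower), *Lpcat2* and *Mboat7* (both higher). At an unadjusted p under 0.05 the members numbered 2 and 3 in these fits (*Lpcat3* and *Mboat1*, and *Lpcat3*, *Lpcat2* and *Mboat7*), against 29.7% and 37.6% of all genes. The median log2 fold change of the members was -0.13, and that of all genes -0.08. The share of members called was near the background with 6 mice and below it without NCD replicate 1.

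**Figure D1:**
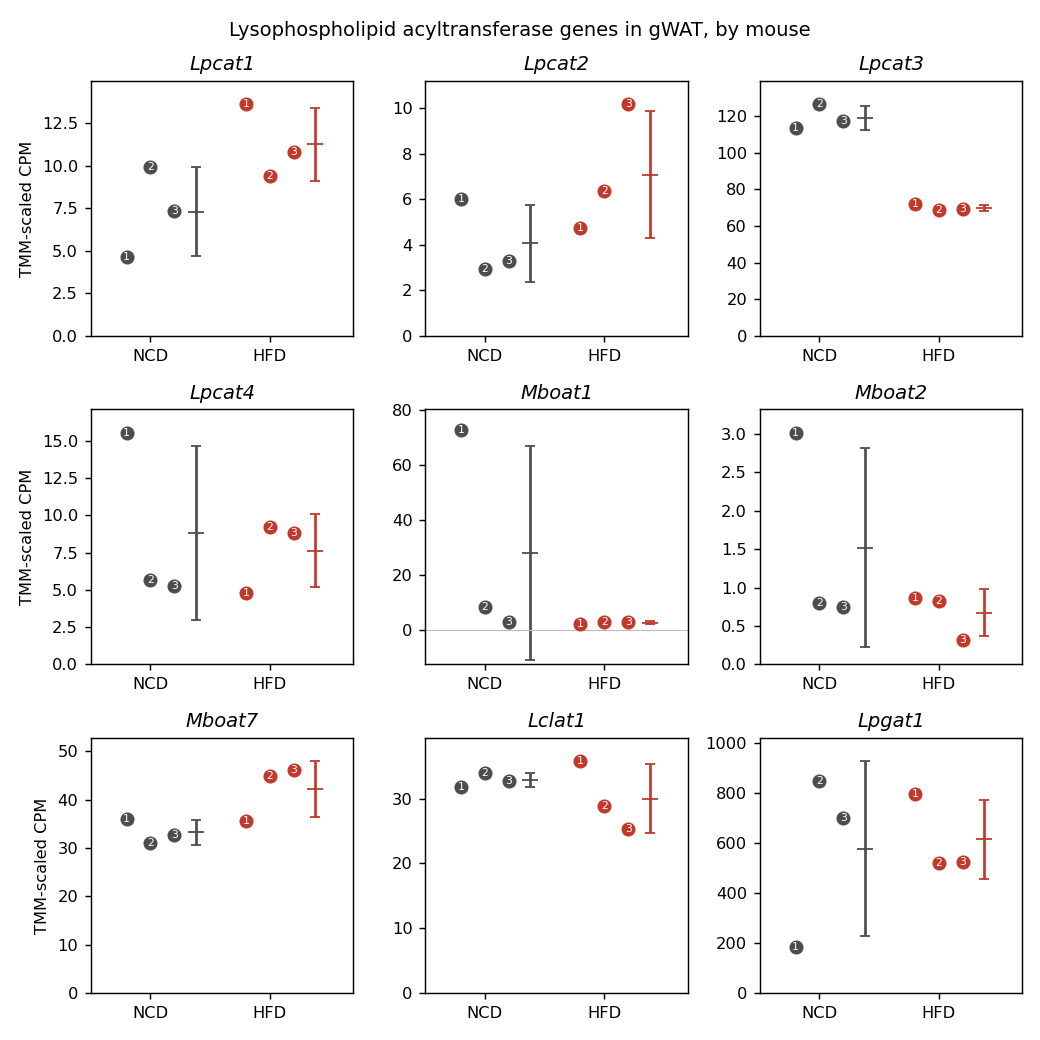
TMM-scaled CPM (y axis, linear) of the 9 genes in each mouse on NCD (grey) and HFD (red), with the replicate number in each point and the mean and SD (n = 3 mice) beside the points. *Lpcat3* lies between 114 and 127 on NCD and between 68.9 and 71.9 on HFD, while the NCD point that stands apart for *Mboat1*, *Mboat2*, *Lpcat4* and *Lpgat1* is replicate 1; for *Mboat1* the SD is larger than the mean, so that its bar passes below 0.

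*Lpcat3* (NCBI gene 14792) is protein-coding and lies on the plus strand at chr6:124663094-124704716 of GRCm38, with 38 exon bases (1.67%) shared with *Emg1* on the other strand. A promoter window of 300 bases around its start, from RefSeq on GRCm38.p6 at chr6:124662854-124663153, is shown because it belongs to the member that fell. The window of *Mboat1* at chr13:30136240-30136539, also on the plus strand, is shown beside it, since that gene had the largest log2 fold change of the 9 and the one that moved most without NCD replicate 1. Capitals mark matches on either strand to the GC box (letters GGGCGG) and to the CCAAT box.
Lpcat3: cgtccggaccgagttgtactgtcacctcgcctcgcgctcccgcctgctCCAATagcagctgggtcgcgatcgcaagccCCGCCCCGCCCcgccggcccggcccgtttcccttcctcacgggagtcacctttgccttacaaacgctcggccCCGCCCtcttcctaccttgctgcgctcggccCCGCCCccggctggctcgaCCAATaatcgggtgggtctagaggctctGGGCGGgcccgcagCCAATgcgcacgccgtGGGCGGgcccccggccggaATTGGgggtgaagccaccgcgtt
Mboat1: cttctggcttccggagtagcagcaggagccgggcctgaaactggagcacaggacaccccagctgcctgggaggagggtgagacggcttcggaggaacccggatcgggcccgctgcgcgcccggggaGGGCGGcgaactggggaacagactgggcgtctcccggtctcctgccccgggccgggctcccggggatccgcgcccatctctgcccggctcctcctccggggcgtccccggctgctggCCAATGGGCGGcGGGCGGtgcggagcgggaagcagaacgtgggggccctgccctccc

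The *Lpcat3* window held 6 GC boxes and 4 CCAAT boxes and had 71.0% G and C, and the *Mboat1* window held 3 and 1 and had 74.3%. Overlapping matches were counted separately. Of all 32851 promoter windows in the table, 35.7% held a GC box and 37.4% a CCAAT box. A GC box was found in every window of the 9 members. No member's window held the E-box CACGTG (7.15% of all windows) or the sterol regulatory element TCACNCCAC (1.24%). *Lpcat2* alone of the members had a TATAAA match, which 13.6% of all windows had. A match in letters is not a measure of binding.

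*Lpcat3* was measured at 114, 127 and 117 TMM-scaled CPM on NCD and at 71.9, 68.9 and 69.3 on HFD. Every HFD-fed mouse was below every NCD-fed mouse, and the 3 HFD values differed little. The NCD mean was 119 ± 6.596 and the HFD mean 70.0 ± 1.63 (SD, n = 3 mice each). Its log2 fold change of -0.77 had a standard error of 0.128 (adjusted p = 0.0281, Benjamini-Hochberg over all genes, in edgeR), where 1.9% of all genes were called lower. Without NCD replicate 1 it was -0.79 with a standard error of 0.104 (adjusted p = 0.00931 from edgeR), where 10.1% of all genes were called lower. Leaving out another mouse in turn, the log2 fold change stayed between -0.72 and -0.78 and the adjusted p from edgeR rose to between 0.0782 and 0.136. In these fits 2 to 7 of all 15433 to 15764 genes tested passed.

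The fall of *Lpcat3* depended on scaling the libraries by more than their totals. As plain CPM the gene was at 56.4, 129 and 126 on NCD and at 83.2, 86.6 and 87.7 on HFD. On that scale NCD replicate 1 lay below the HFD-fed mice and the other NCD-fed mice lay above them. The log2 fold change with library totals alone was -0.27 (adjusted p = 0.679 from edgeR), in a fit whose median over all genes was 0.44, so that *Lpcat3* was at -0.72 relative to that median. In the same libraries the adipocyte markers summed to 5688, 21222 and 29316 TMM-scaled CPM on NCD and to 13180, 15800 and 11990 on HFD. Of the 9 adipocyte markers, 0 were called with 6 mice (median log2 fold change -0.54) and 5 were called lower without NCD replicate 1 (median -0.95). Per 1000 counts of these markers, *Lpcat3* had 20.01, 5.96 and 3.999 counts on NCD and 5.45, 4.36 and 5.78 on HFD, and on this measure the diets overlapped. These quotients were chosen after the levels had been seen, and the part of adipocyte content in the result was not tested.

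The 3 genes whose log2 profile over the 6 libraries lay nearest to that of *Lpcat3*, of 9825 compared, were *Mrps34* (root mean square difference 0.0395 on the log2 scale), *Slc27a4* (0.0534) and *Psmd5* (0.0559). *Mrps34* encodes a mitochondrial ribosomal protein, *Slc27a4* a fatty acid transport protein and *Psmd5* a proteasome assembly chaperone. *Slc27a4* was at 53.8, 60.5 and 53.3 TMM-scaled CPM on NCD and at 35.1, 35.3 and 34.1 on HFD. The nearness describes these 6 libraries only.

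**Figure D2:**
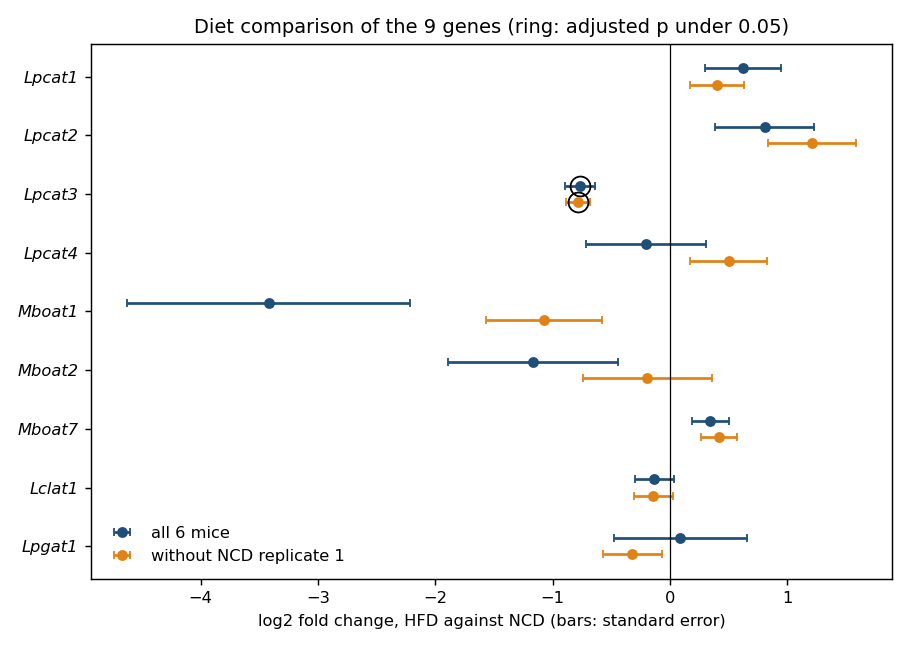
Log2 fold change of HFD against NCD (x axis) for the 9 genes with all 6 mice (blue) and without NCD replicate 1 (orange), from edgeR, with standard errors as bars and a ring where the adjusted p is under 0.05. Only *Lpcat3* is ringed, at -0.77 and -0.79, and *Mboat1* moves from -3.42 to -1.08 between the fits.

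The acyltransferases that take part in PAF synthesis were measured at low levels. *Lpcat2* (NCBI gene 270084, chr8:92855313-92919279, plus strand), found in macrophages and other inflammatory cells, was at 6.00, 2.93 and 3.27 TMM-scaled CPM on NCD and at 4.75, 6.35 and 10.2 on HFD. NCD replicate 1 reached into the HFD range, and the other 2 NCD-fed mice lay below all HFD-fed mice. For *Lpcat2* the log2 fold change was 0.81 with a standard error of 0.421 (adjusted p = 0.254 from edgeR), and 1.21 with a standard error of 0.374 without NCD replicate 1 (adjusted p = 0.0724 from edgeR). An antisense gene, *Gm45472*, overlaps 287 bases (10.2%) of the *Lpcat2* exons, and the sources used here do not say whether reads were counted by strand.

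*Lpcat1* (NCBI gene 210992, chr13:73467231-73516420, plus strand), which makes the dipalmitoyl phosphatidylcholine of lung surfactant, was at 4.66, 9.91 and 7.33 TMM-scaled CPM on NCD and at 13.6, 9.39 and 10.8 on HFD. NCD replicate 2 and HFD replicate 2 crossed. For *Lpcat1* the log2 fold change was 0.62 with a standard error of 0.325 (adjusted p = 0.253 from edgeR), and 0.40 without NCD replicate 1 (adjusted p = 0.265 from edgeR).

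The macrophage markers summed to 396, 939 and 858 TMM-scaled CPM on NCD and to 3638, 2373 and 3029 on HFD. Their median log2 fold change was 2.55, and 4 of the 10 were called higher with 6 mice and 9 of 10 without NCD replicate 1. On HFD *Lpcat2* did not follow the markers, as replicate 1 had the highest markers and the lowest *Lpcat2*. On NCD the order turned with the scale. In TMM-scaled CPM, NCD replicate 1 had the lowest markers and the highest *Lpcat2*. In plain CPM that library was the lowest in both, with *Lpcat2* at 2.97, 2.99 and 3.51 on NCD. Per 1000 counts of these markers *Lpcat1* had 11.7, 10.6 and 8.54 counts on NCD and 3.74, 3.96 and 3.57 on HFD. For *Lpcat2* the quotients were 15.1, 3.11 and 3.82 on NCD and 1.31, 2.68 and 3.36 on HFD. Relative to the markers, *Lpcat1* was lower in every HFD-fed mouse, whereas *Lpcat2* overlapped between the diets. The markers were higher in every HFD-fed mouse, so a gene that rose less than they did tends to come out lower on this measure. The part of macrophage content in either gene's level was not tested.

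*Lpcat4* (NCBI gene 99010, chr2:112239841-112247111, plus strand), which acts on lysophosphatidylethanolamine and lysophosphatidylcholine, was at 15.6, 5.63 and 5.26 TMM-scaled CPM on NCD and at 4.80, 9.24 and 8.83 on HFD. On this scale NCD replicate 1 was the highest of the 6 mice and HFD replicate 1 the lowest. In plain CPM NCD replicate 1 (7.71) lay below HFD replicates 2 and 3 (11.6 and 11.2). The log2 fold change of -0.21 (standard error 0.512 and edgeR adjusted p = 0.809) turned to 0.50 without NCD replicate 1 (standard error 0.326, adjusted p = 0.316 from edgeR) and to 0.05 without HFD replicate 1.

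*Mboat1* (NCBI gene 218121, chr13:30136451-30246694, plus strand), an acyltransferase of lysophosphatidylserine and lysophosphatidylethanolamine, varied most among the NCD-fed mice relative to its mean. It was at 72.8, 8.48 and 2.68 TMM-scaled CPM on NCD and at 2.13, 2.68 and 3.01 on HFD. NCD replicate 3 lay within the HFD range, and the other 2 NCD-fed mice lay above it. For *Mboat1* the log2 fold change was -3.42 with a standard error of 1.20 (adjusted p = 0.126 from edgeR), and -1.08 with a standard error of 0.494 without NCD replicate 1 (adjusted p = 0.172 from edgeR). DESeq2 called the gene with 6 mice (log2 fold change -3.40, adjusted p = 0.00555).

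*Mboat1* and the seminal vesicle genes ranked the NCD-fed mice alike, the latter with 58.6%, 11.2% and 2.30% of the counts. The 8 epithelial markers summed to 661, 160 and 46.9 CPM in these libraries and to 53.3, 227 and 71.8 CPM on HFD, with *Cldn4* at 0 in at least 1 library. Per 1000 counts of the epithelial markers, *Mboat1* had 54.6, 54.2 and 61.2 counts on NCD and 46.3, 14.8 and 53.1 on HFD. Except in HFD replicate 2, these quotients were close to each other. The 4 mesothelial markers were highest in HFD replicate 2 (622 CPM). They were next highest in HFD replicate 1 (257 CPM), where the quotient was 46.3, and their part in the quotients was not tested. The quotient was chosen after the levels had been seen, and the part of admixed tissue in the level of *Mboat1* was not tested.

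*Mboat2* (NCBI gene 67216, chr12:24831435-24964400, plus strand), a paralog of *Mboat1* that prefers oleic acid, was the scarcest member. It had 99, 48 and 40 counts on NCD and 50, 69 and 20 on HFD. The exact 95% Poisson interval of the lowest count was 12.2 to 30.9, for counting error only. In TMM-scaled CPM it was at 3.01, 0.803 and 0.744 on NCD and at 0.867, 0.827 and 0.319 on HFD, so that NCD replicate 1 stood above the other 5 mice. The log2 fold change of -1.17 (standard error 0.721 and edgeR adjusted p = 0.321) was -0.19 without that library (adjusted p = 0.827 from edgeR).

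**Figure D3:**
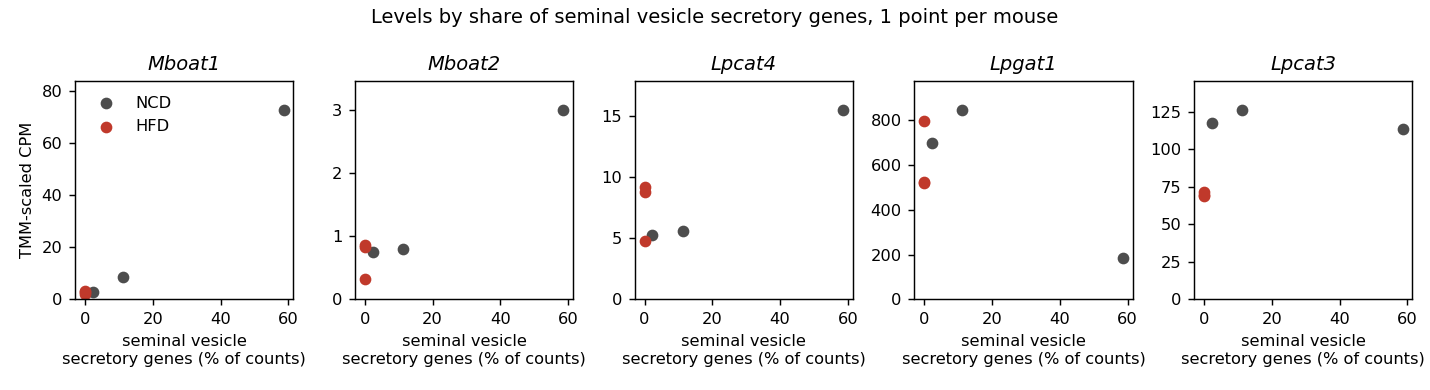
TMM-scaled CPM (y axes, linear from 0) of 5 members against the share of counts on 11 seminal vesicle secretory genes (x axis, percent), 1 point per mouse, NCD in grey and HFD in red. The library at 58.6% has the highest *Mboat1*, *Mboat2* and *Lpcat4* and the lowest *Lpgat1*, and its *Lpcat3* lies with the other NCD-fed mice.

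The enzymes of phosphatidylinositol and cardiolipin remodelling did not pass in either fit. *Mboat7* (NCBI gene 77582, chr7:3677789-3693189, minus strand), which puts arachidonic acid into phosphatidylinositol, was at 36.0, 31.0 and 32.8 TMM-scaled CPM on NCD and at 35.5, 44.8 and 46.2 on HFD. HFD replicate 1 lay just below NCD replicate 1, and the diets did not overlap without that NCD library. For *Mboat7* the log2 fold change was 0.34 with a standard error of 0.157 (adjusted p = 0.205 from edgeR), and 0.42 with a standard error of 0.154 without NCD replicate 1 (adjusted p = 0.108 from edgeR). Its exons share 149 bases (5.18%) with those of *Tsen34* on the other strand. Per 1000 counts of the macrophage markers *Mboat7* had 90.9, 33.0 and 38.2 counts on NCD and 9.76, 18.9 and 15.3 on HFD. The quotient was lower in every HFD-fed mouse, as tends to happen for a gene that rises less than these markers. The part of macrophage content in the level of *Mboat7* was not tested.

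*Lclat1* (NCBI gene 225010, chr17:73107985-73243368, plus strand), which acylates lysocardiolipin and lysophosphatidylinositol, was at 31.8, 33.9 and 32.7 TMM-scaled CPM on NCD and at 35.8, 28.8 and 25.4 on HFD. The NCD-fed mice were close together, and the HFD-fed mice lay on both sides of them. For *Lclat1* the log2 fold change was -0.13 with a standard error of 0.166 (adjusted p = 0.621 from edgeR), and -0.14 without NCD replicate 1. It was 0.36 with library totals alone, which is below that fit's median of 0.44.

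*Lpgat1* (NCBI gene 226856, chr1:191717554-191784255, plus strand), named for lysophosphatidylglycerol and also active on lysophosphatidylethanolamine, was at 183, 849 and 700 TMM-scaled CPM on NCD and at 796, 521 and 525 on HFD. NCD replicate 1 was far below the other 5 mice, and HFD replicate 1 lay between the other 2 NCD-fed mice. For *Lpgat1* the log2 fold change was 0.09 with a standard error of 0.568 (adjusted p = 0.930 from edgeR), and turned to -0.32 with a standard error of 0.253 without NCD replicate 1 (adjusted p = 0.400 from edgeR). It also turned, to -0.14, without HFD replicate 1. Per 1000 counts of the adipocyte markers *Lpgat1* had 32.2, 40.0 and 23.9 counts on NCD and 60.4, 33.0 and 43.8 on HFD, and NCD replicate 1 lay within the range of the other libraries. These quotients too were chosen after the levels had been seen, and the part of adipocyte content in the level of *Lpgat1* was not tested.

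Levels of different members were compared as FPKM, in which counts are divided by exon length and library total. *Lpgat1* was the highest member in 5 of the 6 mice, at 117 and 101 FPKM in NCD replicates 2 and 3 and at 124, 88.1 and 89.2 FPKM on HFD. In NCD replicate 1 it was at 12.2 FPKM and *Lpcat3* was the highest member, at 24.7 FPKM. *Lpcat3* came next in the other mice, at 56.7 and 55.1 FPKM on NCD and at 36.5, 37.97 and 38.4 FPKM on HFD. *Mboat7* and then *Lclat1* followed in the same 5 mice. *Mboat2* was the lowest in all 6 mice, at no more than 0.217 FPKM.

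On HFD the order by median FPKM was *Lpgat1*, *Lpcat3*, *Mboat7*, *Lclat1*, *Lpcat4*, *Lpcat1*, *Lpcat2*, *Mboat1* and *Mboat2*. Among neighbours in this order, the ranges of *Lpcat4* and *Lpcat1* and of *Lpcat1* and *Lpcat2* overlapped, and those of the other 6 pairs did not. On NCD the median order was *Lpgat1*, *Lpcat3*, *Mboat7*, *Lclat1*, *Mboat1*, *Lpcat4*, *Lpcat1*, *Lpcat2* and *Mboat2*. Only the pairs of *Lpcat3* with *Mboat7* and of *Lpcat2* with *Mboat2* had ranges that did not overlap there.

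Within a library, *Lpgat1* and *Lpcat3* together held most of the family's summed FPKM. The share of *Lpcat3* was 38.4%, 28.1% and 30.1% on NCD and 18.9%, 22.9% and 22.7% on HFD, so that it was smaller in every HFD-fed mouse. *Lpgat1* held 19.0%, 57.9% and 55.1% on NCD and 64.0%, 53.0% and 52.6% on HFD. *Mboat1* held 19.3% of the family in NCD replicate 1 and at most 1.48% in any other mouse. A share falls when another member rises, and these shares are given as a description.

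**Figure D4:**
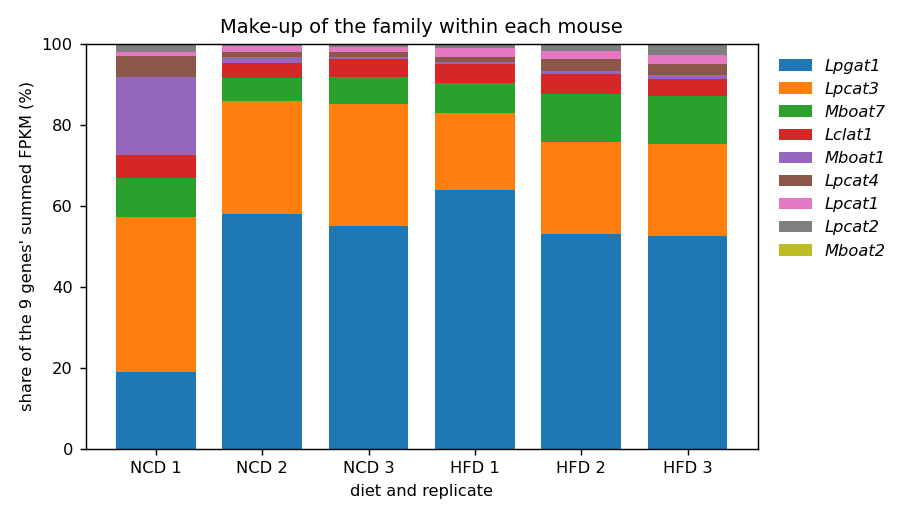
Share of the 9 genes' summed FPKM (y axis, percent) held by each gene in each of the 6 mice (x axis). *Lpgat1* takes 52.6% to 64.0% in 5 mice and 19.0% in NCD replicate 1, and *Lpcat3* takes 28.1% to 38.4% on NCD and 18.9% to 22.9% on HFD.

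Library scaling cancels in a ratio of 2 members within a mouse, and 3 such ratios of FPKM were compared. *Lpcat3* exceeded *Lpcat1* by 40.3, 21.0 and 26.4 times on NCD and by 8.71, 12.1 and 10.6 times on HFD. The ratio of the polyunsaturated to the palmitoyl enzyme was thus lower in every HFD-fed mouse. Its log2 mean was 4.82 ± 0.476 on NCD and 3.37 ± 0.238 on HFD (SD, n = 3 mice each), which differ by -1.44 (two-sided exact permutation test, p = 0.1, which 3 against 3 cannot go below, and 0.3 after Benjamini-Hochberg adjustment over the 3 ratios). Without NCD replicate 1 the difference was -1.18.

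The ratio of *Lpcat2* to *Lpcat1* was 1.72, 0.395 and 0.597 on NCD and 0.467, 0.904 and 1.26 on HFD, with a difference of 0.13 on the log2 scale (exact two-sided permutation test, p = 0.9). *Mboat1* exceeded *Mboat2* by 57.3, 25.04 and 8.54 times on NCD and by 5.83, 7.70 and 22.4 times on HFD. The log2 ratio of *Mboat2* to *Mboat1* differed by 1.20 between the diets (exact two-sided permutation test, p = 0.2). Both ratios overlapped between the diets.

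The genes around these enzymes were read from 9 lists. These were chosen with earlier results of these data known, so their shares are given as a description. The lists held 69 genes in all, of which 63 were tested with 6 mice. Of these, 12 (19.0%) passed the adjusted p, 8 higher and 4 lower on HFD, where 7.47% of all genes passed. Without NCD replicate 1, 25 of 64 (39.1%) passed, where 20.9% of all genes did, and the 12 were among them in the same direction. With any other mouse left out no list gene passed in edgeR, where 2 to 7 of all genes did. In those fits between 19 and 23 list genes had an unadjusted p under 0.05, beside 2988 to 4345 of all 15433 to 15764 genes tested.

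The desaturases and elongases, which shape the acyl chains, held 3 of the 4 list genes that fell. Of 10 desaturases and elongases tested, 3 fell, none rose and 7 did not pass, and the median log2 fold change was -1.31. *Elovl6*, which elongates palmitate to stearate, went from 150 ± 46.7 TMM-scaled CPM on NCD to 9.18 ± 0.490 on HFD (mean and SD, n = 3 mice each, as for all list genes named; log2 fold change -4.03, adjusted p = 0.0157 from edgeR). *Fads2*, the desaturase that starts the synthesis of long polyunsaturated acids, went from 23.6 ± 8.19 to 5.79 ± 1.33 (log2 fold change -2.03, adjusted p = 0.0284 from edgeR). *Scd2*, a stearoyl-CoA desaturase, went from 1191 ± 285 to 135 ± 22.7 (log2 fold change -3.14, adjusted p = 0.0192 from edgeR). *Scd1* and *Fads1*, named after their values were seen, did not pass with 6 mice in edgeR. They did in the edgeR fit that left out NCD replicate 1 (log2 fold changes of -2.85 and -1.93, both lower). In that fit 5 of the 9 adipocyte markers were also lower, with a median log2 fold change of -0.95, against 0 called and a median of -0.54 with 6 mice, and their part in the levels of these genes was not tested.

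Among 4 long-chain acyl-CoA synthetases tested, which activate fatty acids for these enzymes, *Acsl5* rose from 75.5 ± 1.57 to 125 ± 2.81 TMM-scaled CPM (log2 fold change 0.73, adjusted p = 0.0293 from edgeR) and 3 did not pass. *Acsl3* fell without NCD replicate 1, by 1.13 on the log2 scale. Of 8 acyltransferases tested that build phosphatidic acid in the first place, *Agpat4* rose from 6.34 ± 1.76 to 19.3 ± 2.096 TMM-scaled CPM (log2 fold change 1.60, adjusted p = 0.0253 from edgeR) and 7 did not pass. Leaving out that library also called *Agpat2*, *Gpat3* and *Gpat4* lower, with log2 fold changes of -3.25, -2.69 and -0.84. In that fit 5 of the 9 adipocyte markers were lower too (median log2 fold change -0.95). Their part in the levels of these and the other list genes called lower there was not tested.

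Of 11 genes on the list of phospholipases and lysophospholipases, 1 rose, 1 fell and 9 did not pass. *Pnpla7*, a lysophospholipase, rose from 24.7 ± 4.77 to 45.3 ± 2.18 TMM-scaled CPM (log2 fold change 0.88, adjusted p = 0.0417 from edgeR). The gene that fell, *Gde1*, encodes a glycerophosphodiesterase and not a phospholipase A. It went from 127 ± 20.4 to 50.0 ± 5.96 (log2 fold change -1.34, adjusted p = 0.0223 from edgeR). Without NCD replicate 1, *Pla2g4a* and *Pla2g15* were also higher, with log2 fold changes of 1.89 and 0.96, and *Pla2g6* and *Pnpla8* lower, with -0.87 and -0.74.

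Of 6 genes of PAF breakdown and reception, 2 rose and 4 did not pass. *Pla2g7*, the secreted PAF acetylhydrolase, went from 12.9 ± 2.77 to 141 ± 39.3 TMM-scaled CPM (log2 fold change 3.44, adjusted p = 0.0192 from edgeR), and *Ptafr*, the PAF receptor, from 19.7 ± 9.09 to 129 ± 36.0 (log2 fold change 2.71, adjusted p = 0.0239 from edgeR). The macrophage markers were higher in the same mice, and their part in these levels was not tested.

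The MBOAT family has members that use other acceptors, of which 5 were tested. *Soat1*, which esterifies cholesterol, rose from 12.2 ± 3.42 to 103 ± 37.3 TMM-scaled CPM (log2 fold change 3.08, adjusted p = 0.0212 from edgeR), and 4 did not pass. The macrophage markers, with a median log2 fold change of 2.55, were higher in the same mice, and their part in the level of *Soat1* was not tested. *Dgat1*, which makes triglyceride, was called lower without NCD replicate 1 (log2 fold change -1.02). The part of the adipocyte markers, also lower in that fit, was not tested for it either. Of 7 genes of phosphatidylinositol synthesis and 4-kinases, *Pi4k2a* rose from 50.7 ± 1.00 to 86.1 ± 12.6 (log2 fold change 0.76, adjusted p = 0.0424 from edgeR) and 6 did not pass, with *Cds2* higher as well without NCD replicate 1 (log2 fold change 0.51). None of 6 cardiolipin genes passed in either fit. With 6 mice the largest difference among them was that of *Pgs1*, with a log2 fold change of 0.35 (adjusted p = 0.517 from edgeR), and without NCD replicate 1 that of *Hadha*, with -0.36 (adjusted p = 0.307 from edgeR).

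*Lpcat3* can be set beside the other LXR genes. Of the 2 receptors and 4 further targets tested, *Abcg1*, a cholesterol exporter, rose from 29.1 ± 10.4 to 210 ± 33.1 TMM-scaled CPM (log2 fold change 2.85, adjusted p = 0.0212 from edgeR) and 5 did not pass. *Srebf1*, the regulator of fatty acid synthesis, fell without NCD replicate 1 (log2 fold change -2.23, adjusted p = 0.00686 from edgeR), and with 6 mice it had a log2 fold change of -1.90 (adjusted p = 0.0601 from edgeR). *Lpcat3* and *Abcg1* passed in opposite directions in either fit. The macrophage markers had median log2 fold changes of 2.55 with 6 mice and 2.27 without NCD replicate 1, and the adipocyte markers of -0.54 and -0.95. The part of either cell type in the levels of *Lpcat3*, *Abcg1* and *Srebf1* was not tested.

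**Figure D5:**
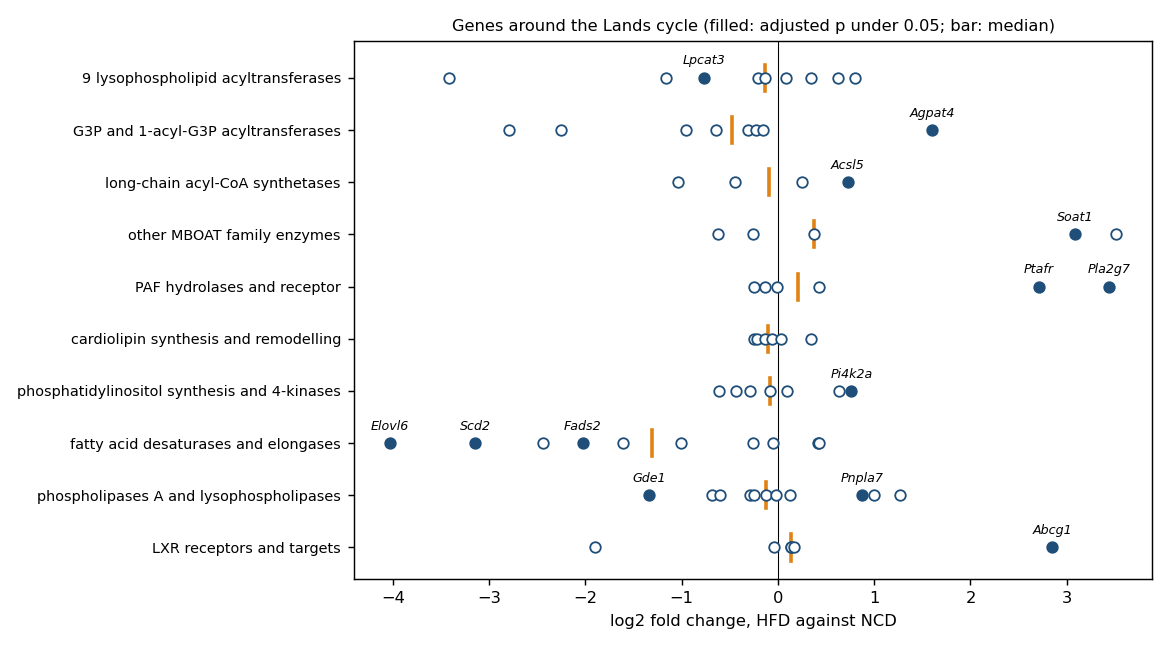
Log2 fold change of HFD against NCD (x axis) with all 6 mice for the 9 members and 9 lists of neighbouring genes (rows), with each tested gene as a point, filled and named where the adjusted p from edgeR is under 0.05, and the median of each row as an orange bar. The desaturases and elongases have the lowest median, at -1.31, and the 9 members have one of -0.13.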

How the data were processed

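The authors deposited raw read counts per gene for 6 gWAT libraries, 1 column per mouse, without normalization. Columns that match no sample numbered 0. The submitters' processing notes name bcl2fastq 2.20.0, Trimmomatic, HISAT2 2.1.0, StringTie 1.3.4d and DESeq2 with the builds mm10 and GRCm38, but not how reads were counted or whether strand was used. Symbols and coordinates came from RefSeq on GRCm38.p6 (19742 of 19790 identifiers matched), promoter windows from the same source (all 9 members matched), and exon lengths from GENCODE vM21 basic transcripts. FPKM was computed here from these lengths. Genes without a length (of 19790, 17793 had one) held 1.05% of the counts.

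Counts were filtered by filterByExpr (at least 10 counts, and 15 in total), TMM-scaled, and fitted by quasi-likelihood in edgeR 4.0.16 (R 4.3.3), adjusted over all genes kept, at a threshold of 0.05. Standard errors came from the log2 fold change and its F statistic (size over root F). Replicates of a diet differed by 101 to 3100 in chi-square per degree of freedom, so none was a duplicate. Tested on simulated data, the fit called few of the smaller changes, so that a gene that did not pass is not shown to be unchanged. Alternatives were other filters and scalings, DESeq2 1.42.0, limma 3.58.1 on log2(TMM-scaled CPM + 1), the replicate number as a block, and each mouse left out. Within-mouse ratios were compared with exact permutation tests (SciPy 1.17.1). Figures were drawn with matplotlib 3.10.9.

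The members and lists were chosen with earlier results of these data known. Named are all members, list genes past the threshold with 6 mice (up to 4 a list, or the one with the largest log2 fold change), and the 3 nearest profiles of a called member among genes with a mean of at least 10 TMM-scaled CPM. List genes called in edgeR without NCD replicate 1 but not with 6 mice were named after their values were seen. The column matched to HFD replicate 3 carries the number 4 in the table, as that sample's description does.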

Additional observations from a re-analysis of the deposited data

How the results depend on the processing

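With 6 mice 1 member, 1139 genes and 12 of the list genes passed. These numbers were 2, 3853 and 22 in DESeq2, which left 2280 genes without an adjusted p, and 0, 12 and 0 with the replicate number as a replicate block, a fit in which 1 member, 3571 genes and 20 list genes had an unadjusted p under 0.05. Mice with the same number did not deviate together (correlations of -0.05, -0.02 and -0.02). For mice with different numbers the correlations lay between -0.06 and 0.07. With 3 mice a diet this check cannot show whether the number pairs them. With library totals alone no member passed, where 959 of all 15241 genes did. In that fit 3 members and 3649 of all genes had an unadjusted p under 0.05. Over the fits without 1 mouse each the numbers ranged from 0 to 1, from 2 to 3234 and from 0 to 25. The highest came without NCD replicate 1. No member and no list gene passed in edgeR when NCD replicate 2 or 3 or any HFD replicate was left out, where 2 to 7 of all genes did. In those fits 1 to 3 members had an unadjusted p under 0.05, beside 2988 to 4345 of all 15433 to 15764 genes tested. Calls were higher on HFD in 74.6% of cases with 6 mice, in 54.5% with DESeq2, in 51.5% without NCD replicate 1 and in 41.7% with the block.

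*Lpcat3* was lower under all 13 alternatives. Signs turned for *Lpcat4* with library totals alone (0.57), without NCD replicate 1 (0.50) and without HFD replicate 1 (0.05; -0.45 to 0.50 over the fits without 1 mouse), for *Lclat1* with library totals alone (0.36), and for *Lpgat1* without NCD replicate 1 (-0.32) and without HFD replicate 1 (-0.14; -0.32 to 0.47 over these fits). With library totals alone all genes had a median of 0.44, in place of -0.08. The difference in the log2 ratio of *Lpcat2* to *Lpcat1* turned to -0.32, -0.02 and -0.19 without NCD replicate 2, NCD replicate 3 and HFD replicate 3, and ranged from -0.32 to 0.74 over the fits without 1 mouse. Those of *Lpcat3* to *Lpcat1* and of *Mboat2* to *Mboat1* ranged from -1.65 to -1.18 and from 0.55 to 1.92. The cause was not tested. With 20 to 99 counts a library, *Mboat2* was the member most limited by depth. *Lpcat3* had an adjusted p of 0.0990 with the block.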
